A study of Mus musculus with 8 samples.

Results

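Interferon-stimulated genes (ISGs) are the genes that a cell switches on when interferon binds its receptor. They were followed here in mouse dendritic cells that had engulfed ferroptotic cells. A set of 43 ISGs was taken from the deposited count table by matching mouse gene identifiers to symbols. All 43 were found among the 55487 identifiers, and all 43 passed the filter on low counts. The members were grouped by role into 3 transcription factors, 3 genes of the ISG15 system, 10 IFIT, OAS and MX genes, 6 GBP and IRG genes, 6 nucleic acid sensors, 14 other effectors and 1 chemokine.

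Bone marrow-derived dendritic cells (BMDC) were grown from wild-type C57/bl6 mouse bone marrow (C57BL/6J in the study's methods) in GM-CSF for 10 days. The 4 control libraries came from BMDC that received no treatment. The 4 BMDC-fer libraries came from BMDC that were co-cultured with Jurkat cells, a human T-cell leukemia line, killed through ferroptosis by the GPX4 inhibitor ML162, and then sorted for the presence of this cargo. All BMDC-fer cells therefore differ from BMDC by co-culture, uptake, sorting and any ML162 carried over with the Jurkat cells, all at once. The shares of these cannot be told apart. In bulk libraries, fewer cells of a type and less RNA per cell cannot be told apart either. The labels do not say whether the replicates came from separate mice or cultures, so p-values measure only the spread between these libraries.

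Type I interferons bind the IFNAR receptor, whose kinases JAK1 and TYK2 lead to assembly of ISGF3, a complex that holds STAT2 and IRF9. ISGF3 binds a promoter element called the ISRE and turns on IFIT, OAS and MX genes. Type II interferon (IFN-γ) binds another receptor, acts through JAK1 and JAK2, and turns on genes through the GAS element, a route on which GBP and IRG genes depend strongly. In dendritic cells, type I interferon signaling favors maturation and cross-presentation of antigens to T cells, and a low tonic level of it is known to keep ISGs expressed at rest.

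The promoters of the members carried these elements in different proportions. RefSeq promoters (GRCm38.p6, 250 bases before to 50 after the start site) were at hand for 35 of the 43 members, and Rtp4, Usp18, Zbp1, Mx2, Dhx58, Mx1, Parp14 and Oas2 were the other members. The ISRE core GAAANNGAAA, searched on both strands, was found in 21 of the 35 members (60.0%) and in 3.99% of all 27025 genes with a promoter of this length. It was present in 4 of 7 IFIT, OAS and MX genes, in 5 of 6 GBP and IRG genes, and in 4 of 4 nucleic acid sensors. The GAS core TTCNNNGAA was found in 9 of the 35 members (25.7%) and in 9.55% of all genes, among them 2 of 7 IFIT, OAS and MX genes and 2 of 6 GBP and IRG genes. A match of letters is not a measured binding site. The stretches below hold the ISRE core, in capitals, of members whose values are described further on. They read 5′ to 3′ along the gene's own strand, so a core on the opposite strand appears as its reverse complement.
Ifit1 (chr19:34640775-34640804, plus strand): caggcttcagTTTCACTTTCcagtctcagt
Ifit3 (chr19:34583397-34583426, plus strand): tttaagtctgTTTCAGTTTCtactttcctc
Isg15 (chr4:156200865-156200894, minus strand): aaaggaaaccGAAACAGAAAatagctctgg
Oas3 (chr5:120777715-120777744, minus strand): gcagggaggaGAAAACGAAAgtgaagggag
Rsad2 (chr12:26456553-26456582, minus strand): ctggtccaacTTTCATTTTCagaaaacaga
Cxcl10 (chr5:92349083-92349112, minus strand): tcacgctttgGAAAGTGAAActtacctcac
Gbp2 (chr3:142620594-142620623, plus strand): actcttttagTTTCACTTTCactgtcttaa
Gbp3 (chr3:142559989-142560018, plus strand): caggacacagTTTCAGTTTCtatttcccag
Gbp7 (chr3:142530273-142530302, plus strand): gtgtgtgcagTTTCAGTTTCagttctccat
Irgm1 (chr11:48871431-48871460, minus strand): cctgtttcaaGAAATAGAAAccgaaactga
Members from either group carried the core in the searched stretch, at 104 bases before the start site in Ifit1, 59 in Gbp2 and 30 in Irgm1. Sequence beyond that stretch was not searched.

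Total counts were between 39326672 and 50532209 per library. Replicates 1 and 2 differed from replicates 3 and 4 among BMDC and among BMDC-fer alike. Chi-square per gene between libraries of a group was between 8.24 and 36.5 within these 2 sets and between 123 and 307 across them, and the labels give no reason for the split. Same-numbered libraries deviated together from their group means, but so did libraries of a set with different numbers. In replicates 3 and 4 different numbers correlated at 0.382 and 0.399, and same numbers at 0.333 and 0.384. A pairing by number is thus an assumption. A fit with the number as a term of the model, called blocked, was made beside the fit without it. Values are from the latter unless the block is named. Dendritic cell genes were present, with Itgax (CD11c) between 748 and 1407 CPM (counts relative to the TMM-scaled library total) over the 8 libraries. Of 12 dendritic cell markers, 2 (Flt3 and Irf4) were called lower in BMDC-fer, where 5.91% of all tested genes were. With the block 7 were lower and 1 higher, where 8.13% and 4.85% of all tested genes were. DESeq2 called 4 lower, where 8.39% of all genes were. The median log2 fold change was -1.22, and the summed level of the list was between 8352 and 18285 CPM in BMDC and between 4163 and 9613 CPM in BMDC-fer. Of 10 neutrophil markers, 5 were called lower, and 9 with the block and by DESeq2, with none higher, against the same shares over all genes. The summed level of the neutrophil list, most of it from Mmp8, was between 607 and 1247 CPM in BMDC and between 727 and 1463 CPM in BMDC-fer. Of 9 macrophage markers, 1 (Adgre1) was called lower and none higher, while 8 had fitted values above 0 in both sets, the median log2 fold change was 0.49, and the summed level was between 2016 and 2972 CPM in BMDC and between 2285 and 4196 CPM in BMDC-fer, higher at every replicate number. Of 10 T cell markers 3 were tested and 1 was called lower, or 2 with the block and by DESeq2. Their sums were between 29.2 and 53.8 CPM over all libraries, and the defining genes Cd3e and Trac reached no more than 0.147 and 0.0479 CPM. Of 8 plasmacytoid dendritic cell markers 5 were tested and 1 was called lower, with sums between 31.9 and 89.1 CPM, and Siglech was at 0 in all BMDC-fer libraries. The part of these other cell types in the results below was not tested.

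The comparison of BMDC-fer with BMDC asks whether taking up ferroptotic cargo was accompanied by an interferon response. Calls required an edgeR quasi-likelihood p, adjusted by Benjamini-Hochberg over the 15411 genes tested, that did not exceed 0.05, together with an absolute log2 fold change of at least 0.58. Without the replicate block, 0 of the 43 ISGs were called higher, against 3.47% of all tested genes, and 1 was called lower, against 5.91% of all tested genes. The gene called lower was Gbp2. At an unadjusted p under 0.05 there were also 0 higher and 1 lower, and DESeq2 called 0 higher (4.89% of all genes) and 1 lower (8.39% of all genes). The median log2 fold change of the 43 members was 0.30, and that of all tested genes was 0.00069. In the blocked fit, 8 members were called higher, against 4.85% of all tested genes, and 1 lower, against 8.13% of all tested genes. The members that rose were Ifit1, Ifit2, Ifit3, Rsad2, Cmpk2, Samd9l, Irgm1 and Cxcl10. They made up 18.6% of the members, and each was higher in BMDC-fer in all 4 same-numbered pairs. The blocked fit tests these same differences, so the agreement over pairs adds no separate support. This count rested on single replicates: it was 7 without replicate 1 and 8 without replicate 3, but 1 without replicate 2 and 1 without replicate 4, each time leaving out both libraries of that number. Ifit1 was called in all 4 of these smaller fits, with a highest adjusted p of 0.0393 in edgeR's test. Ifit3 and Cmpk2 were called in 2 of them, and Ifit2, Rsad2, Samd9l, Irgm1 and Cxcl10 in 1 each. Oas2, Oasl2, Isg15 and Rtp4, which the blocked fit of all libraries did not call, were called in 1 each. These counts thus include members outside the 8. A fit with the set of replicates as a term in place of the number called 12 members higher, against 7.73% of all tested genes, and 1 lower, against 10.5% of all tested genes.

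**Figure D1:**
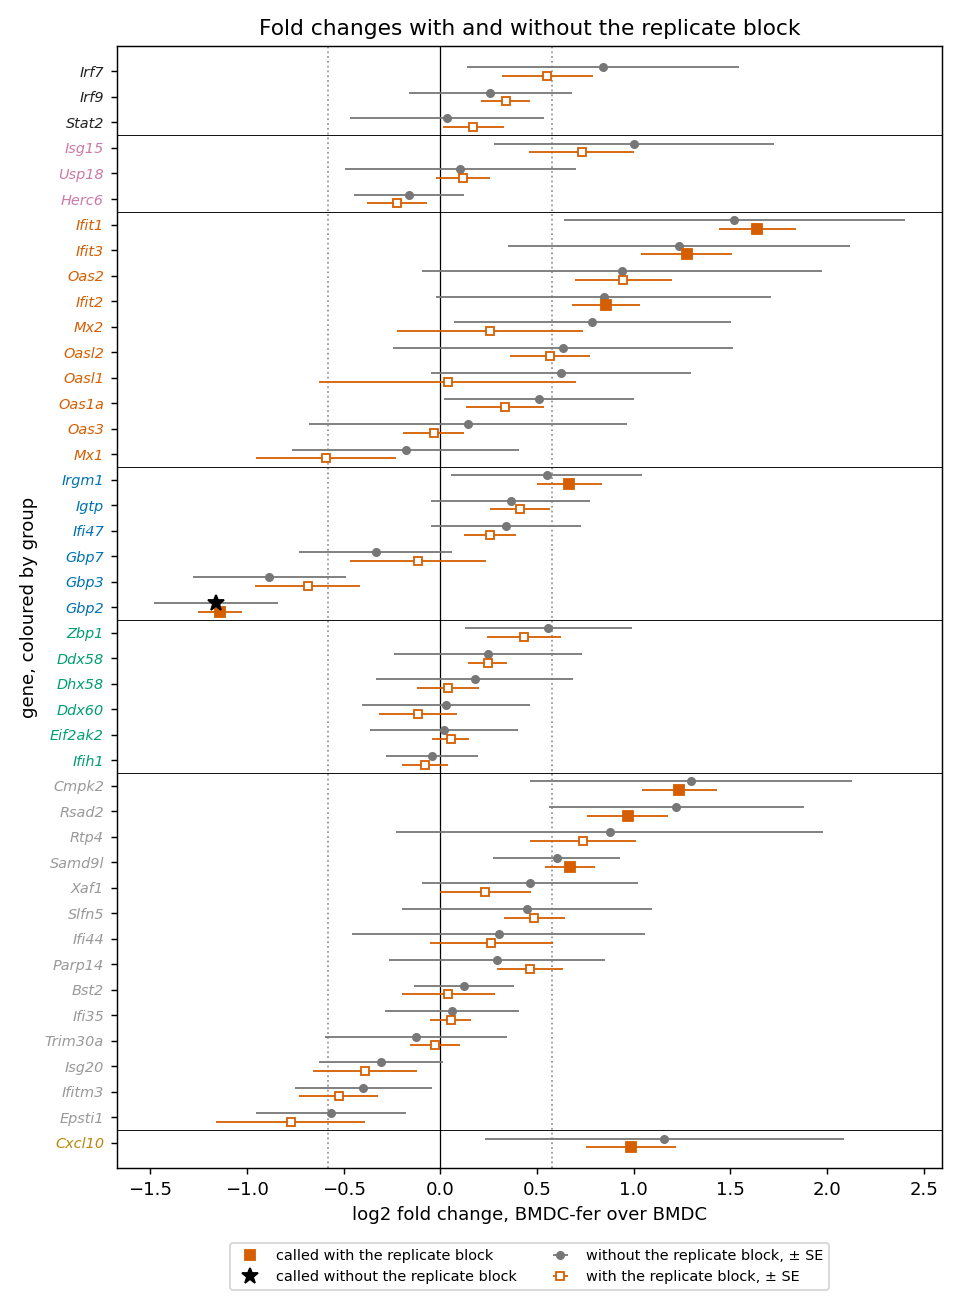
Fitted log2 fold change of BMDC-fer over BMDC (x axis) for each of the 43 ISGs (y axis), without the replicate block (grey circles) and with it (orange squares), with bars for the standard error and dotted lines at an absolute log2 fold change of 0.58. The 8 members called higher have filled squares on the right, Gbp2 is the gene called by both fits, and the grey bars are longer than the orange ones for most genes.

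The untreated cells themselves differed in ISG level between the sets of replicates. In 39 of 43 members both BMDC replicates 1 and 2 lay above both BMDC replicates 3 and 4, an order that 40.0% of all tested genes had. In BMDC-fer the same order held for 42 of 43 members and for 31.5% of all tested genes. The ratio of the mean of BMDC replicates 1 and 2 to that of replicates 3 and 4 had a median of 2.72 over the members and 1.00 over all tested genes. It was 10.4 for Rtp4, 10.1 for Oas2 and 7.57 for Ifit1, and it was near 1 for Oasl1 (1.11), Bst2 (0.956) and Epsti1 (0.900). These values describe libraries whose split was first seen in these data, so no test was made of them.

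**Figure D2:**
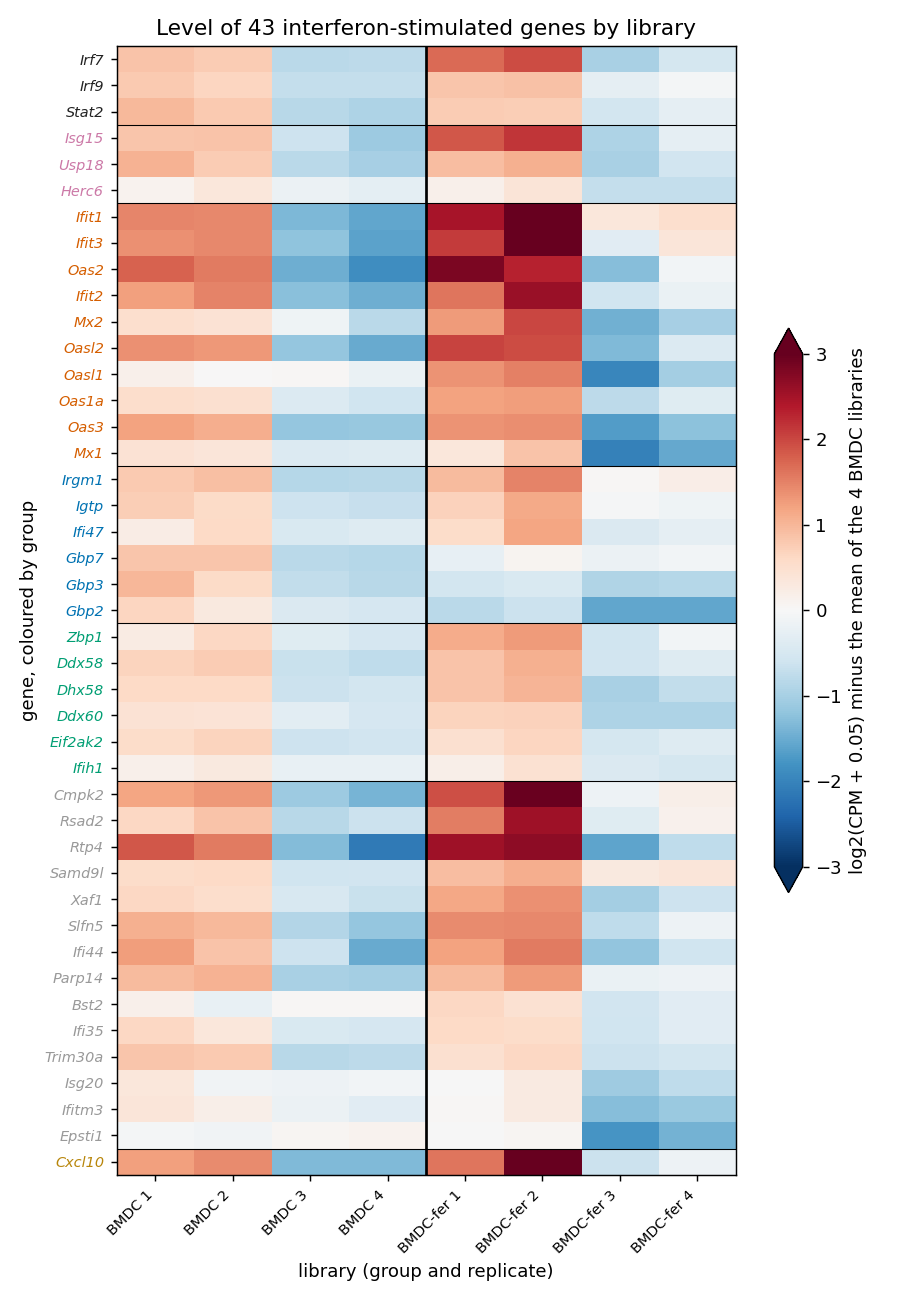
Level of each ISG (rows, grouped by role, label colors as groups) in each of the 8 libraries (columns), as log2(CPM + 0.05) minus the mean of the 4 BMDC libraries on the same scale, with red for higher and blue for lower. Replicates 1 and 2 are redder than replicates 3 and 4 in both groups, and BMDC-fer replicate 2 holds the darkest cells for Ifit1, Ifit3, Cmpk2 and Cxcl10.

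Among the transcription factors, none was called in either fit. Irf7, the factor that amplifies type I interferon production, stood at 22.3, 21.1, 7.03 and 7.11 CPM in BMDC replicates 1 to 4 and at 40.2, 47.9, 6.33 and 8.59 CPM in BMDC-fer replicates 1 to 4. BMDC-fer was therefore higher in replicates 1 and 2 and close to BMDC in replicates 3 and 4, and the groups overlapped. Its log2 fold change was 0.84 ± 0.70 (SE, n = 4 libraries per group, edgeR adjusted p = 0.45), and 0.55 ± 0.23 with the block (edgeR adjusted p = 0.156). Irf9, the DNA-binding subunit of ISGF3, gave 67.9, 61.4, 23.9 and 23.9 CPM in BMDC and 69.6, 72.4, 32.3 and 37.5 CPM in BMDC-fer. It was higher in BMDC-fer at every replicate number, by log2 ratios between 0.04 and 0.65, and the fits gave 0.26 ± 0.42 and, blocked, 0.34 ± 0.13. Stat2, another subunit of ISGF3, had 161, 139, 45.4 and 42.7 CPM in BMDC and 139, 136, 55.3 and 67.1 CPM in BMDC-fer, so that its log2 ratio was below 0 in replicates 1 and 2 and above 0 in replicates 3 and 4. The fits for Stat2 gave 0.03 ± 0.50 and, blocked, 0.17 ± 0.16.

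The ISG15 system adds and removes the ubiquitin-like protein ISG15 on other proteins. Isg15 itself was at 20.6, 20.8, 7.50 and 5.36 CPM in BMDC and at 41.8, 51.3, 6.01 and 9.58 CPM in BMDC-fer. Its level was higher in 3 of 4 same-numbered pairs, replicate 3 being the exception, and the fitted log2 fold change was 1.00 ± 0.72 (edgeR adjusted p = 0.382) and 0.73 ± 0.27 with the block (edgeR adjusted p = 0.119). Usp18, which strips ISG15 from its targets and restrains IFNAR signaling, had 70.3, 57.3, 19.2 and 16.9 CPM in BMDC against 64.8, 71.1, 17.2 and 22.9 CPM in BMDC-fer. These values interleave, and the log2 fold change was 0.10 ± 0.60, or 0.12 ± 0.14 with the block. Herc6, an ISG15 ligase of the mouse, had -0.16 ± 0.28 on the log2 scale (edgeR adjusted p = 0.731), and 23.8% of its transcript's 50-base words also occur in another annotated gene.

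The 3 IFIT genes, which encode proteins that bind foreign RNA ends, had the clearest pattern of the antiviral group. They lie within a cluster on chromosome 19 (GRCm38, GENCODE M21), with Ifit2 at 34550694 to 34576419, Ifit3 at 34583531 to 34588731 and Ifit1 at 34640871 to 34650009. Ifit1 was at 14.3, 14.0, 2.01 and 1.72 CPM in BMDC and at 29.0, 49.0, 6.56 and 7.28 CPM in BMDC-fer. Every BMDC-fer library was above its same-numbered BMDC library, yet BMDC-fer replicates 3 and 4 stayed below BMDC replicates 1 and 2. Its log2 fold change was 1.52 ± 0.88 without the block (edgeR adjusted p = 0.279) and 1.64 ± 0.20 with it (edgeR adjusted p = 0.00731). Ifit3 gave 16.8, 17.5, 2.77 and 2.10 CPM in BMDC and 27.6, 51.3, 5.13 and 8.30 CPM in BMDC-fer, with 1.24 ± 0.88 (edgeR adjusted p = 0.378) and, with the block, 1.27 ± 0.24 (edgeR adjusted p = 0.021). Ifit3 too was higher in all 4 pairs, but 51.2% of the 50-base words of Ifit3 occur in Ifit3b as well, so its counts are uncertain where reads were shared between them. Ifit2 stood at 31.4, 37.4, 5.58 and 4.81 CPM in BMDC and 40.8, 80.9, 8.82 and 11.7 CPM in BMDC-fer, with a log2 fold change of 0.85 ± 0.18 in the blocked fit (edgeR adjusted p = 0.0277) and 0.84 ± 0.87 in the other (edgeR adjusted p = 0.541).

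The OAS genes encode oligoadenylate synthetases, which on binding double-stranded RNA make the activator of RNase L. None of the 5 OAS members was called in either fit. Oas2 had 35.5, 30.3, 3.74 and 2.79 CPM in BMDC and 73.5, 51.4, 4.26 and 9.71 CPM in BMDC-fer. It was higher in BMDC-fer in all 4 pairs, and missed the threshold with the block (0.95 ± 0.25, edgeR adjusted p = 0.0531). Oasl2 was at 54.6, 51.8, 9.41 and 7.36 CPM in BMDC and 85.6, 81.6, 8.43 and 15.8 CPM in BMDC-fer, so 3 of 4 pairs were higher in BMDC-fer. Oas1a showed 71.96, 69.9, 37.2 and 32.9 CPM in BMDC and 115, 119, 29.1 and 38.4 CPM in BMDC-fer. Here BMDC-fer replicates 1 and 2 were above all other libraries, replicate 3 was below all BMDC libraries and replicate 4 was among the BMDC values. Of the words of Oas1a, 57.6% are shared with Oas1b or Oas1g. Oas3 varied least between the groups, at 46.0, 42.3, 8.80 and 9.03 CPM in BMDC and 50.7, 51.8, 6.16 and 8.45 CPM in BMDC-fer, and its fitted log2 fold change was 0.14 ± 0.82 without the block and -0.03 ± 0.16 with it.

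Oasl1 and Mx2 moved in opposite directions in the sets of replicates, and Mx1 did so in its fitted values only. Oasl1, an OAS-like protein known to restrain translation of Irf7, had nearly equal levels in BMDC, at 6.24, 5.69, 5.84 and 4.94 CPM. In BMDC-fer it was at 14.5, 16.4, 1.41 and 2.75 CPM, above all BMDC libraries in replicates 1 and 2 and below all of them in replicates 3 and 4. The log2 fold change fitted within replicates 1 and 2 was 1.38 and within replicates 3 and 4 it was -1.37, so that the fit over all 8 libraries, 0.62 ± 0.67 or 0.04 ± 0.66 with the block, described neither. Mx1, of the dynamin-like GTPase family, was at 155, 147, 86.3 and 87.9 CPM in BMDC and at 144, 209, 28.1 and 39.7 CPM in BMDC-fer. Mx2, its paralog, was at 7.42, 7.05, 4.75 and 2.94 CPM in BMDC and at 12.6, 21.1, 1.89 and 2.59 CPM in BMDC-fer. For both, BMDC-fer was below BMDC in replicates 3 and 4, with log2 fold changes within that set of -1.35 for Mx1 and -0.77 for Mx2, against 0.23 and 1.23 within replicates 1 and 2. The 0.23 of Mx1 joined a fall in replicate 1 and a rise in replicate 2, with log2 ratios of -0.11 and 0.51. Over all libraries the fits gave -0.18 ± 0.59 and, blocked, -0.59 ± 0.36 for Mx1, and 0.79 ± 0.72 and, blocked, 0.26 ± 0.48 for Mx2. The difference between the sets was not tested.

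**Figure D3:**
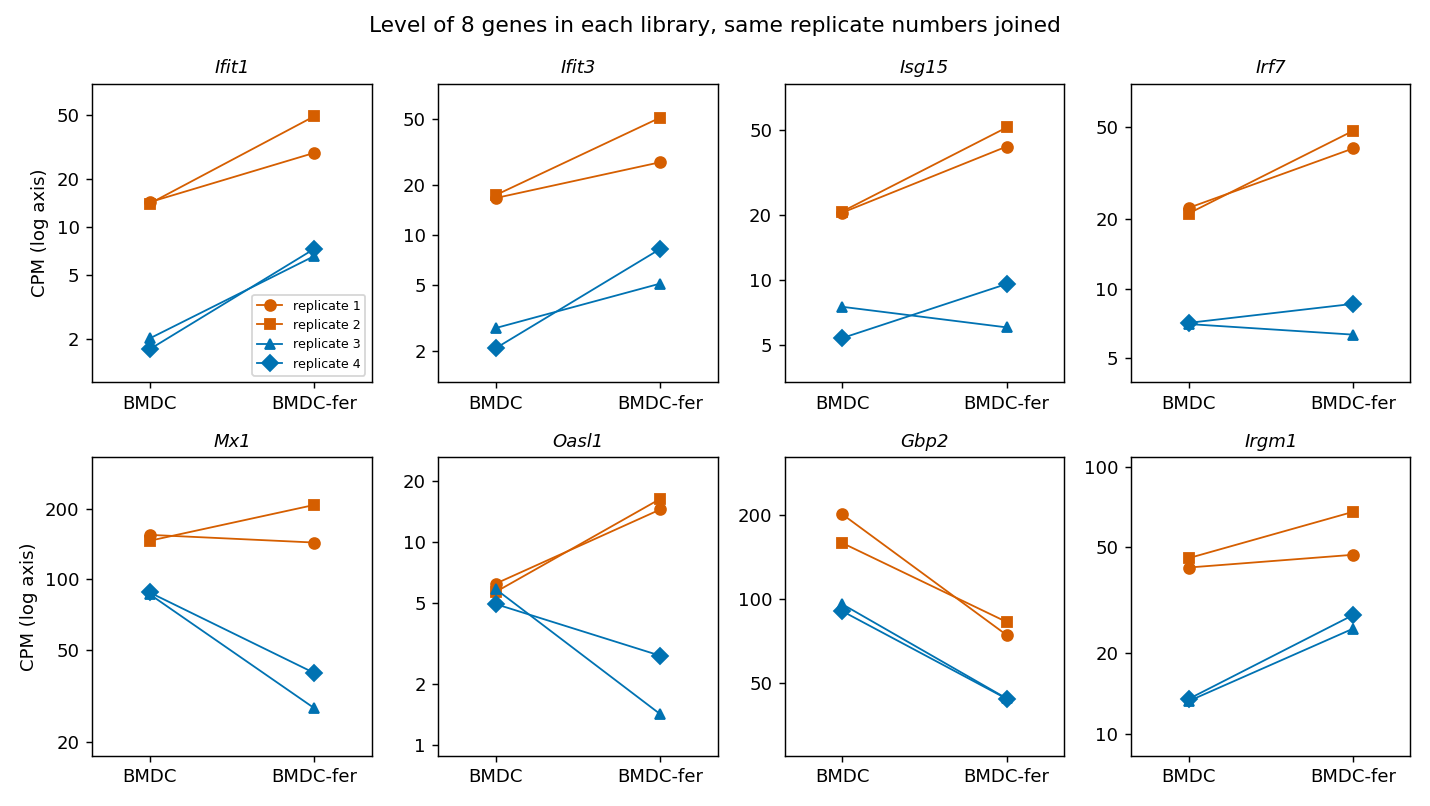
CPM (y axis, log scale) of 8 ISGs in BMDC and BMDC-fer, with each line joining the libraries of 1 replicate number (orange for replicates 1 and 2, blue for replicates 3 and 4). Lines for Ifit1 and Ifit3 rise at all 4 numbers, those for Gbp2 fall at all 4, and those for Oasl1 rise in replicates 1 and 2 and fall in replicates 3 and 4.

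The GBP and IRG genes encode interferon-inducible GTPases that act on vacuoles holding intracellular microbes. Gbp2 (chromosome 3, 142620602 to 142638008) had 202, 159, 96.1 and 90.7 CPM in BMDC and 74.4, 82.9, 44.1 and 43.9 CPM in BMDC-fer. All BMDC-fer libraries were below all BMDC libraries. It was the 1 member whose groups did not overlap, where 11.6% of all tested genes had BMDC-fer entirely lower and 11.3%, against 0 members, had it entirely higher. Its mean fell from 137 ± 53.4 to 61.3 ± 20.3 CPM (SD, n = 4), which is -1.16 ± 0.32 on the log2 scale (edgeR adjusted p = 0.0483). With the block it was -1.14 ± 0.11 (edgeR adjusted p = 0.00519), and it remained called in all 4 blocked fits that left out a replicate number. Without the block the call was lost when any 1 of the 8 libraries was left out, with an edgeR adjusted p between 0.0503 and 0.134.

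Its neighbors on chromosome 3 differed from it. Gbp3 (142560026 to 142573209) stood at 99.7, 75.3, 30.3 and 28.2 CPM in BMDC and 34.6, 36.9, 27.0 and 28.0 CPM in BMDC-fer. The difference lay in replicates 1 and 2, with a log2 fold change of -1.28 within that set and -0.08 within replicates 3 and 4, and the fit over all libraries gave -0.88 ± 0.40 (edgeR adjusted p = 0.172) or, blocked, -0.69 ± 0.27 (edgeR adjusted p = 0.135). Gbp7 (142530342 to 142550149) gave 147, 145, 47.0 and 45.6 CPM in BMDC and 69.0, 86.6, 72.5 and 77.2 CPM in BMDC-fer. Its 4 BMDC-fer libraries lay between the high and the low BMDC libraries, and the log2 fold change was -0.90 within replicates 1 and 2 and 0.71 within replicates 3 and 4. Of the 50-base words of Gbp7, 12.8% are shared with other genes, Gbp3, Gbp9 and Gbp11 among them.

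The IRG members lie on chromosome 11 and had values in the other direction. Irgm1, a regulator of the other immunity-related GTPases and of autophagy, was at 41.9, 45.4, 13.2 and 13.5 CPM in BMDC and at 46.7, 67.7, 24.7 and 27.8 CPM in BMDC-fer. It was higher in all 4 pairs, most in replicates 3 and 4. The fit gave 0.55 ± 0.49 on the log2 scale (edgeR adjusted p = 0.484), which became 0.67 ± 0.17 once blocked (edgeR adjusted p = 0.0456). Igtp had 20.6, 18.4, 8.02 and 7.61 CPM in BMDC and 19.9, 27.1, 12.004 and 11.3 CPM in BMDC-fer. Ifi47 had 20.7, 26.9, 13.0 and 13.6 CPM in BMDC and 25.8, 40.3, 13.2 and 14.6 CPM in BMDC-fer. Igtp was higher in 3 of 4 pairs and Ifi47 in all 4, and neither was called, at 0.36 ± 0.41 and 0.34 ± 0.39, or 0.41 ± 0.15 and 0.26 ± 0.13 with the block.

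Set side by side, the antiviral genes and the GTPases differed most in replicates 1 and 2. The median log2 fold change of the 10 IFIT, OAS and MX genes was 0.71 over all libraries, and that of the 6 GBP and IRG genes was 0.0027. With the block these medians were 0.45 and 0.072, and without BMDC-fer replicate 2 the unblocked ones were 0.17 and -0.23. By replicate number, the median log2 ratio of the IFIT, OAS and MX genes was 0.70, 0.94, -0.26 and 0.66, and that of the GBP and IRG genes was -0.57, -0.10, 0.30 and 0.33. Over all tested genes these medians were between -0.0041 and 0.0107. In replicates 1 and 2 all 10 IFIT, OAS and MX genes had a fitted log2 fold change above 0, with a median of 0.88, whereas 3 of 6 GBP and IRG genes did, with a median of -0.31. In replicates 3 and 4 the medians were 0.25 and 0.33, and 5 of 10 and 4 of 6 genes were above 0. The order of the groups in replicates 1, 2 and 4 was thus the opposite of that in replicate 3. Over all libraries the 3 GBP members had fitted values below 0 and the 3 IRG members above 0, of which Gbp2, and Irgm1 with the block, were called. This contrast between groups was not tested, since its members are not independent of each other.

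Over all 43 members, 23 were higher in BMDC-fer in both sets, 3 were lower in both, 13 were higher in replicates 1 and 2 and lower in replicates 3 and 4, and 4 showed the reverse. The 13 are 30.2% of the members, and 19.5% of all genes fitted in both sets had that pattern. Of the same genes, 31.5% were higher in both sets, 29.2% were lower in both and 19.8% had the reverse pattern. By single replicate numbers, 13 members were higher in all 4 pairs, where 22.0% of all tested genes were, and 2 members, Gbp2 and Gbp3, were lower in all 4, where 22.2% of all tested genes were.

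**Figure D4:**
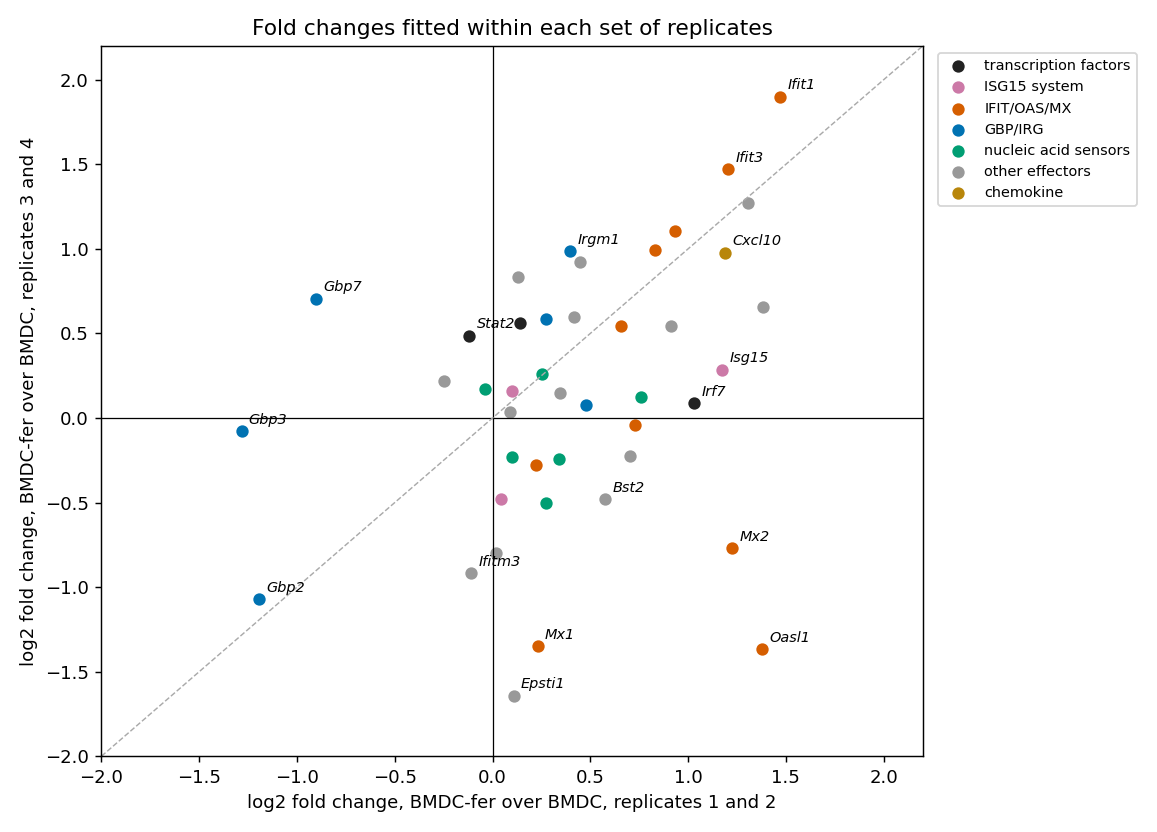
Log2 fold change of BMDC-fer over BMDC fitted within replicates 1 and 2 (x axis) and within replicates 3 and 4 (y axis) for the 43 ISGs, colored by group, with a dashed line where both are equal. Ifit1 and Ifit3 lie at the upper right, Gbp2 at the lower left, Gbp7 at the upper left, and Oasl1, Mx1, Mx2 and Epsti1 at the lower right.

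None of the 6 nucleic acid sensors was called in either fit. Ifih1, which encodes the long double-stranded RNA sensor MDA5, was at 30.8, 33.5, 23.4 and 23.8 CPM in BMDC and at 30.9, 37.7, 20.5 and 19.2 CPM in BMDC-fer. Ddx58, which encodes RIG-I, a sensor of RNA with triphosphate ends, had 52.8, 56.0, 20.7 and 19.3 CPM in BMDC and 59.7, 69.6, 22.1 and 25.4 CPM in BMDC-fer. Ddx58 was higher in all 4 pairs, by log2 ratios between 0.10 and 0.40, and the log2 ratios of Ifih1 were between -0.30 and 0.17. The fitted values of the remaining sensors ran from 0.02 for Eif2ak2 (PKR) through 0.03 for Ddx60 and 0.18 for Dhx58 (LGP2) to 0.56 for Zbp1, the sensor of Z-form nucleic acids.

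The chemokine Cxcl10, which draws CXCR3-bearing T cells, had 15.1, 17.2, 2.53 and 2.52 CPM in BMDC and 19.7, 54.1, 4.10 and 5.78 CPM in BMDC-fer. BMDC-fer replicate 2 held by far the highest level, and all 4 pairs were higher in BMDC-fer. The fit gave 1.16 ± 0.93 on the log2 scale (edgeR adjusted p = 0.431), and 0.98 ± 0.23 with the block (edgeR adjusted p = 0.0397). The effectors Rsad2 (viperin) and Cmpk2, a nucleotide kinase encoded next to it on chromosome 12, were likewise higher in all 4 pairs. Rsad2 was at 21.7, 25.4, 7.81 and 8.93 CPM in BMDC and 40.9, 81.8, 10.9 and 15.3 CPM in BMDC-fer. Cmpk2 was at 18.5, 20.1, 3.81 and 3.07 CPM in BMDC and 31.1, 64.0, 7.36 and 9.16 CPM in BMDC-fer. Both were again highest in BMDC-fer replicate 2, and with the block their log2 fold changes were 0.97 ± 0.21 (edgeR adjusted p = 0.0314) and 1.24 ± 0.20 (edgeR adjusted p = 0.0138). Without it they were 1.22 ± 0.66 (edgeR adjusted p = 0.246) and 1.30 ± 0.83 (edgeR adjusted p = 0.327). Samd9l, a restriction factor for poxviruses, was at 82.0, 83.6, 36.9 and 37.5 CPM in BMDC and 106, 119, 68.0 and 71.7 CPM in BMDC-fer, with 0.67 ± 0.13 in the blocked fit (edgeR adjusted p = 0.0232) and 0.60 ± 0.33 in the other (edgeR adjusted p = 0.248).

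Other effectors stayed uncalled. Rtp4, at 37.4, 30.4, 4.16 and 2.34 CPM in BMDC and 60.7, 66.2, 3.40 and 6.05 CPM in BMDC-fer, was the member with the widest gap between the sets of replicates. Epsti1 stood at 45.7, 43.9, 49.0 and 50.7 CPM in BMDC and 47.2, 49.0, 13.9 and 17.8 CPM in BMDC-fer, so the BMDC-fer libraries below BMDC were those of replicates 3 and 4. Ifitm3, which blocks fusion of viruses with the cell, was at 539, 474, 370 and 334 CPM in BMDC and 430, 505, 174 and 195 CPM in BMDC-fer. Both Epsti1 and Ifitm3 thus had their lowest levels in BMDC-fer replicates 3 and 4, as did Isg20, a 3′ exonuclease, at 4.42, 3.22, 3.12 and 3.32 CPM in BMDC and 3.48, 4.23, 1.63 and 2.04 CPM in BMDC-fer. The log2 fold changes of the remaining effectors ran from -0.13 for Trim30a to 0.46 for Xaf1, with Ifi35, Bst2, Parp14, Ifi44 and Slfn5 between them. Per kilobase of exon, the mean BMDC level was highest for Ifitm3 (633 CPM per kilobase) and Bst2 (166 CPM per kilobase) and lowest for Ifi44 (0.292 CPM per kilobase). On that scale Ifit1 was at 3.01 in BMDC and 8.64 in BMDC-fer, while Gbp2 went from 54.5 to 24.4.

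The ligands that start the pathway were close to absent. Of 21 interferon genes, none passed the filter, 8 had no count in any library, and apart from Ifnb1 none had more than 9 counts in a library. Ifnb1, which encodes IFN-β, had 1, 0, 3 and 0 counts in BMDC and 20, 24, 6 and 5 counts in BMDC-fer. These are 4 counts against 55, a ratio of 13.2 relative to the library totals with an exact conditional 95% interval from 4.86 to 49.99 that covers counting error only. The larger BMDC-fer counts were those of replicates 1 and 2.

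Of 16 genes for receptors and signal transduction, 2 were called higher, where 3.47% of all tested genes were, and 2 lower, where 5.91% were. These 4 were called with the block as well. Ifnar1, a chain of the type I receptor, rose from 108 ± 16.7 to 163 ± 14.8 CPM (SD, n = 4), by 0.59 ± 0.13 on the log2 scale (edgeR adjusted p = 0.0253). The partner chain Ifnar2 had 0.16 ± 0.11 and was not called. Ifngr2, a chain of the IFN-γ receptor, rose by 0.59 ± 0.14 on the log2 scale (edgeR adjusted p = 0.0343). Jak2, the kinase bound to that chain, was at 463, 371, 405 and 388 CPM in BMDC and 142, 97.8, 82.2 and 76.8 CPM in BMDC-fer. The groups were far apart, and Jak2 fell by 2.03 ± 0.20 on the log2 scale (edgeR adjusted p = 0.00207). Stat3 fell by 0.59 ± 0.14 on the log2 scale (edgeR adjusted p = 0.0313). When 1 library was left out in turn, Jak2 was called in all 8 fits, Ifnar1 and Stat3 in 3 each, with edgeR adjusted p-values up to 0.0737 and 0.0781, and Ifngr2 in 2, with up to 0.0968. Irf1, a transcription factor induced by IFN-γ, had 0.18 ± 0.35 and was called in neither fit.

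Among 20 sensors and adaptors upstream of interferon, 4 were higher and 2 lower at an unadjusted p under 0.05. DESeq2 called 2 higher and 1 lower, where 4.89% and 8.39% of all genes were. By edgeR, 0 were called higher and 1 lower, where 3.47% and 5.91% of all tested genes were. The gene called lower was Traf6, at 45.1, 48.2, 153 and 160 CPM in BMDC and 34.02, 34.3, 35.8 and 34.9 CPM in BMDC-fer. The BMDC-fer values were nearly equal while BMDC replicates 3 and 4 were high, and the call (-1.54 ± 0.42, edgeR adjusted p = 0.0466) was lost with the block (edgeR adjusted p = 0.0634) and in 6 of 8 fits without 1 library. Ikbke, a kinase that activates IRF3 and IRF7, was called only with the block (1.07, edgeR adjusted p = 0.00533).

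Further relatives of the members gave few calls. Of 17 more GBP and IRG genes, 16 were tested and edgeR called 0 (1 higher and 3 lower at an unadjusted p under 0.05, and 0 by DESeq2). Over all tested genes edgeR called 3.47% higher and 5.91% lower, and DESeq2 4.89% higher and 8.39% lower. With the block Gbp2b fell, at 35.6, 38.3, 4.31 and 2.54 CPM in BMDC and 5.95, 7.17, 0.623 and 0.838 CPM in BMDC-fer (-2.37 on the log2 scale, edgeR adjusted p = 0.00498). Like Gbp2, it was lower in all 4 pairs. Of 19 more IFIT, OAS and IFI genes, 17 were tested and 2 were called lower, where 5.91% of all tested genes were. Ifitm6 fell by 2.05 ± 0.20 on the log2 scale (edgeR adjusted p = 0.00207), and so did Ifitm1, by 1.96 ± 0.48 (edgeR adjusted p = 0.0351), the latter in 3 of 8 fits without 1 library. Ifit3b rose with the block (1.47, edgeR adjusted p = 0.0327), and it is the paralog that shares 50-base words with Ifit3. Of 14 targets of IFN-γ, some of which are also among the signaling genes, 13 were tested. For these edgeR without the block called 0 (1 higher and 2 lower at an unadjusted p under 0.05, and 1 higher by DESeq2). Calls with the block are not reported here for this list. The shares over all tested genes are those given above for the GBP and IRG genes.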

How the data were processed

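RNA of 4 BMDC and 4 BMDC-fer libraries was sequenced. The authors mapped reads with HISAT2 and counted them per gene with featureCounts, to build mm10 per the submitters' processing notes. Tool versions, annotation, strand and the handling of multi-mapped reads are not given in the sources used here. The deposited values are raw counts of mouse genes. Human counts were not analysed here. Of 55487 identifiers, 55141 had a symbol (GENCODE M21, GRCm38). Groups and replicate numbers came from the sample labels.

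Counts were fitted in R 4.3.3 with edgeR 4.0.16 after filterByExpr (count minimum 10, 0.236 CPM) and TMM scaling. Quasi-likelihood p-values were adjusted by Benjamini-Hochberg, and the thresholds (0.05 and a log2 fold change of 0.58) are those of the study's methods. Standard errors were derived from the F statistic. DESeq2 1.42.0, other scalings and filters, a replicate block, a term for the sets of replicates and fits without 1 library were alternatives. Blocked fits without 1 replicate number were added after seeing the data. The blocked fit treated numbers as pairing the libraries, an assumption that rests on the shared numbers. Same-numbered libraries had deviations from the group means that correlated across genes at 0.470, 0.381, 0.333 and 0.384 for numbers 1 to 4. Libraries of a set with different numbers also correlated, at 0.179 to 0.399, and in replicates 3 and 4 as much as same-numbered ones. The correlations therefore do not settle the pairing. Differences by replicate number are log2 ratios of CPM + 0.05. A floor of 3 counts corresponds to 0.0594 to 0.0763 CPM and, like the Ifnb1 interval, reflects counting error alone, because no molecular identifiers separate PCR copies. No pair of replicates differed by less than sampling noise. The scripts were tested on simulated data.

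The members and all lists were chosen with earlier results of these data known. Values in every library are given for Irf7, Irf9, Stat2, Isg15, Usp18, Ifih1, Ddx58, Cxcl10, all IFIT, OAS, MX, GBP and IRG members and the 3 highest and 3 lowest of the others. Genes called without the block and Ifnb1, Irf1, Ifnar1 and Ifnar2 are given from the pathway lists, and a further gene of these lists is not reported here. Samd9l, Ikbke, Gbp2b and Ifit3b were named after their values were seen. Promoters are from RefSeq.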

Additional observations from a re-analysis of the deposited data

Results flagged for a closer look

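Each member's 4 libraries per group were checked for 1 library far from the other 3. Of 86 such groups, 1 was flagged. Chance flags about 1 in 20 where libraries scatter alike, but here replicates 1 and 2 lay apart from replicates 3 and 4 for most members. Such a split widens a group's range and makes a flag hard to reach, so the count does not show that the libraries are clean. The flagged group was Isg20 in BMDC, with replicate 1 at 4.42 CPM, whose gap to the nearest library was 0.850 of the group's whole range.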

How the results depend on the processing

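The 43 members were refitted under 17 alternatives each, which gave 731 values. Of these, 649 kept their direction and their side of the threshold, 20 gained a call, 9 lost one and 53 changed sign. The count of members called higher, 0 without the block, was 8 with the replicate block and 12 (7.73% of all genes) with the set of replicates as a term, where Oas2, Oasl2, Isg15 and Rtp4 joined the 8. With library sizes alone, 0 members were called lower. With 1 library left out, the count called lower was 0 in each fit (range 0 to 0). The count called higher with the block was between 1 and 8 without 1 replicate number. The median log2 fold change of the IFIT, OAS and MX genes ran from 0.17 (without BMDC-fer replicate 2) to 1.06 (without BMDC-fer replicate 3), and that of the GBP and IRG genes from -0.23 to 0.25. The block gave the member calls named in the report and changed no other call among the 43. With library sizes alone, which set the median of all genes at -0.09, the sign changed for Stat2 (-0.11), Oas3 (-0.015), Ddx60 (-0.091), Eif2ak2 (-0.12), Usp18 (-0.043) and Ifi35 (-0.061). With the replicate block it changed for Oas3 (-0.035) and Ddx60 (-0.12), and with the set as a term for Oas3 (-0.026) and Ddx60 (-0.12). With 1 library left out, the fitted log2 fold changes that crossed 0 ran from -0.21 to 0.39 for Stat2, -0.75 to 0.14 for Mx1, -0.29 to 0.55 for Oas3, -0.054 to 0.58 for Ifi47, -0.24 to 0.10 for Ifih1, -0.058 to 0.52 for Ddx58, -0.17 to 0.44 for Dhx58, -0.24 to 0.26 for Ddx60, -0.19 to 0.27 for Eif2ak2, -0.23 to 0.50 for Usp18, -0.079 to 0.30 for Bst2, -0.36 to 0.16 for Trim30a, -0.023 to 0.66 for Parp14, -0.19 to 0.79 for Ifi44 and -0.11 to 0.30 for Ifi35. The cause was not tested. A pseudocount of 1 in place of 0.05 moved the median difference by less than its spread.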
